A study of Mus musculus with 2 samples.

Results

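Smarcd1, Smarcd2 and Smarcd3 encode BAF60A, BAF60B and BAF60C, the 3 interchangeable BAF60 subunits of the BAF chromatin-remodelling complexes. They were found by symbol, 1 row each, among the 28692 genes counted in single cells of mouse pancreatic islets. The study's title concerns BAF60C in type 2 diabetes. It compared 1 library labelled BcBKO, from mice with an ablation described as specific to beta cells and made with Pdx1-cre, with 1 library of flox/flox mice. Pdx1-cre drives Cre recombinase with the promoter of Pdx1, a gene active throughout the early pancreas bud and later mainly in beta cells, so recombination need not be limited to them. The labels give neither the ablated gene by symbol nor the exons between the lox sites, and Smarcd3 is taken as the target from the title. Sex, age and strain are not given in the sources used here. Each library pooled the islets of at least 3 mice, so there are no replicates: no test between the groups was possible, and every interval below is an exact 95% interval that covers counting error only, not differences between mice or preparations.

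BAF complexes use ATP to slide or evict nucleosomes and so open or close regulatory DNA. A complex takes up 1 BAF60 subunit, which contacts transcription factors, and the choice among the 3 is one way in which cell types build different complexes. BAF60A is made in most tissues, BAF60B is known for its part in the formation of neutrophils, and BAF60C is known from the heart and from skeletal and smooth muscle, where it works with transcription factors of muscle genes. The question followed here is which of the 3 genes each islet cell class used and whether that differed between the libraries.

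Smarcd1 (ENSMUSG00000023018) lies on the plus strand at chr15:99702129-99713991, Smarcd2 (ENSMUSG00000078619) on the minus strand at chr11:106263179-106272972 and Smarcd3 (ENSMUSG00000028949) on the minus strand at chr5:24590818-24624411 (GENCODE M21, GRCm38). Smarcd1 overlaps 3 genes of the opposite strand, Gm17349 by 3315 bases, Gm34939 by 1313 bases and the pseudogene Gm17241 by 252 bases, whose reads could not be told apart from its own if counting ignored strand. The 250 bases before the start site that RefSeq gives for each gene (GRCm38.p6) are printed below, and how alike they are was not measured. Capitals mark GGGCGG, the GC box, CANNTG, the E-box bound by muscle and many other helix-loop-helix factors, and TATAAA, searched on both strands, and matches may touch or overlap. The windows are chr15:99702037-99702286 on the plus strand, chr11:106267633-106267882 on the minus strand and chr5:24602003-24602252 on the minus strand.
Smarcd1: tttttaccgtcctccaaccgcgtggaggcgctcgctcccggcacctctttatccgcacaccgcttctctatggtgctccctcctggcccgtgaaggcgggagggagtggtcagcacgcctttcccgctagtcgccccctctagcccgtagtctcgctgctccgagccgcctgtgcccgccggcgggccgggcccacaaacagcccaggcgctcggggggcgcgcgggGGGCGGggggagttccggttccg
Smarcd2: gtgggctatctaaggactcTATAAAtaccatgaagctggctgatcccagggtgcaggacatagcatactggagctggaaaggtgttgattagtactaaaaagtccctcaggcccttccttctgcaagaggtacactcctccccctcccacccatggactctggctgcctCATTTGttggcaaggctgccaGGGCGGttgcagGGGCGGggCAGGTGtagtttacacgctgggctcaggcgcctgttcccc
Smarcd3: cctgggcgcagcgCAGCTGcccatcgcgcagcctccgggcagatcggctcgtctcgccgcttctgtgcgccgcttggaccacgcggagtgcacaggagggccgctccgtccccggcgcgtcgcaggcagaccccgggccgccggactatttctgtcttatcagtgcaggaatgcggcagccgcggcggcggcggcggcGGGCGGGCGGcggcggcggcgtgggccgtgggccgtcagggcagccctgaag

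G and C made up 71.2% of the Smarcd1 window, 56.4% of the Smarcd2 window and 76.0% of the Smarcd3 window, against a median of 52.4% over 32851 windows of the same length. GGGCGG occurred in all 3 windows and in 32.7% of all windows. CANNTG occurred in the windows of Smarcd2 (2 matches) and Smarcd3 (1 match) and in 66.2% of all windows, so its presence is usual. TATAAA occurred in the Smarcd2 window, 226 to 231 bases before the start, and in 12.4% of all windows. These are matches of letters and not binding sites. The RefSeq starts of Smarcd2 and Smarcd3 lie 5340 and 22409 bases inside the longest GENCODE gene models, and the files do not say which start a cell uses.

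The library labelled BcBKO had 10775 deposited barcodes with 178647270 UMIs, which are RNA molecules counted once each at their 3′ end, and the flox/flox library had 9438 barcodes with 167670996 UMIs. Barcodes with at least 500 genes and 1000 UMIs and at most 20% of UMIs from mitochondrial genes were kept, which left 8504 and 7568. All barcodes together held 4571 BAF60 UMIs in the library labelled BcBKO and 4355 in the flox/flox library. The 2 libraries had 23 barcode sequences in common, 14 of them kept in both. Levels are CPM, the UMIs of a gene per 1000000 UMIs of its class. Because each molecule is counted once at its end, levels of different genes were compared without division by length.

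The kept barcodes were sorted into 7 classes by a few genes each: beta by insulin, alpha by glucagon (Gcg), delta by somatostatin (Sst), endothelial by Plvap and Cdh5, mural by Rgs5 and Pdgfrb, duct-like by Krt19 and macrophage by C1qa and C1qb. The classes carried their other markers: barcodes of 1 class only had UMIs of every gene of their own list, with summed levels between 1982 CPM for the 7 mural genes in flox/flox and 61479 CPM for the 7 beta-cell genes labelled BcBKO. In delta and mural barcodes the beta-cell list was above their own: 26058 CPM labelled BcBKO and 24113 CPM in flox/flox in delta barcodes, where the delta list was 8566 and 8870 CPM, and 5141 and 4114 CPM in mural barcodes. In all, 6135 kept barcodes labelled BcBKO and 5876 of the flox/flox library met at least 1 class rule. A barcode may meet several rules, and the endothelial and mural rules overlapped most. Of the mural barcodes, 498 of 665 (74.9%) labelled BcBKO and 569 of 794 (71.7%) in the flox/flox library also met the endothelial rule. These shared barcodes carried the marker genes of both types, at 11641 CPM labelled BcBKO and 10978 CPM in flox/flox for the endothelial list and 822 and 789 CPM for the mural list. Their median depth was 9533 UMIs labelled BcBKO and 11648 UMIs in the flox/flox library. Barcodes of the endothelial rule alone had 3931 and 4292 UMIs, and those of the mural rule alone 3598.5 and 4357. Doublets were called in 1.81% and 1.58% of the shared barcodes and in 2.09% and 2.25% of all kept barcodes. Whether the shared barcodes hold 2 cells was not tested. Values for all barcodes of a rule and for barcodes of 1 class only are therefore named as such.

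The targeted gene was not lower in beta cells of the library labelled BcBKO. Smarcd3 had 71 UMIs in 3058 beta cells labelled BcBKO, or 0.610 CPM (0.476 to 0.769), and 45 UMIs in 2750 flox/flox beta cells, or 0.374 CPM (0.273 to 0.501). The ratio was 1.63 (1.11 to 2.42), higher in the library labelled BcBKO. The direction goes against the genotype label, but counts at the 3′ end say nothing of a deletion that leaves that end transcribed. Among 14589 genes with at least 20 UMIs in beta cells, 9.23% were past 1.5-fold in either direction and 7.37% were past it upwards. Among 13291 genes with at least 50 UMIs the shares were 5.72% and 4.69%, so a difference past 1.5-fold was not rare.

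These beta-cell levels were low, and the macrophage class set beside them had too few UMIs to resolve levels of this size. Macrophages, taken here as a class without the gene, had 1 Smarcd3 UMI in 331 barcodes of 1 class labelled BcBKO, or 0.560 CPM (0.0142 to 3.12). They had 0 in 421 flox/flox barcodes, which at a fixed limit of 3 counts allows up to 1.26 CPM. The level in beta cells was 1.09 times that in macrophages labelled BcBKO (0.189 to 43.6), and the flox/flox level lay under the macrophage limit, so by CPM beta cells could not be told apart from macrophages in either library. By UMIs per cell the beta cells labelled BcBKO had 7.69 times (1.34 to 308) the macrophage value, at several times the depth. RNA shed by mural or duct-like cells was gauged by their markers. Rgs5 in beta cells was 12.1 CPM labelled BcBKO and 14.5 CPM in flox/flox, which at the Smarcd3 to Rgs5 ratio of mural barcodes would bring 0.0500 and 0.0888 CPM of Smarcd3. By Krt19 the duct-like share would be 0.0314 and 0.0153 CPM, and by Spp1 0.179 and 0.108 CPM. These values are below the measured levels, but they take the ratios of whole barcodes to hold in shed RNA, and the part of shed RNA was not tested.

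By depth the beta cells did not all point the same way. Cells of 20000 to 40000 UMIs had 34 Smarcd3 UMIs labelled BcBKO and 19 in flox/flox (ratio 1.62, 0.898 to 3.01), and cells over 40000 UMIs had 34 and 23 (1.77, 1.01 to 3.14). Cells of 10000 to 20000 UMIs had 3 and 3, a ratio of 0.257 (0.0344 to 1.92) that rests on 241 cells labelled BcBKO and 64 flox/flox cells. At its 3′ end the whole gene model of Smarcd3 overlaps Chpf2 by 3739 bases, a gene of the opposite strand that encodes a chondroitin-synthesis factor. The 2 coding transcripts of Smarcd3 end at chr5:24592622, inside Chpf2 (chr5:24586741-24594556), so their overlap is shorter. Whether the counts used strand is not given in the sources used here. Chpf2 was 5.41 CPM in beta cells labelled BcBKO and 4.85 CPM in flox/flox, and it was highest in endothelial barcodes of 1 class (20.8 and 21.1 CPM), where Smarcd3 was 1.43 and 1.24 CPM. The part of Chpf2 reads in the Smarcd3 counts was not tested.

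In the endocrine classes nearly all BAF60 transcripts came from Smarcd1 and Smarcd2. Beta cells used both about equally: Smarcd2 gave 51.7% (49.5 to 53.8) of 2048 BAF60 UMIs labelled BcBKO and 49.98% (47.8 to 52.2) of 2057 in flox/flox. Smarcd1 gave 44.9% (42.7 to 47.1) and 47.8% (45.7 to 50.02). Smarcd3 was left with 3.47% (2.72 to 4.35) and 2.19% (1.6 to 2.92). The ratio of Smarcd1 to Smarcd2 in beta cells was 0.869 (0.794 to 0.95) labelled BcBKO, a small lead of Smarcd2, and 0.957 (0.876 to 1.05) in flox/flox, within counting error.

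Alpha and delta cells leaned towards Smarcd1. In alpha barcodes of 1 class the Smarcd1 share was 53.4% (47.2 to 59.5) of 266 BAF60 UMIs labelled BcBKO and 61.4% (53.7 to 68.7) of 171 in flox/flox. Smarcd1 exceeded Smarcd2 there by ratios of 1.42 (1.09 to 1.85) and 1.84 (1.32 to 2.59). Delta barcodes of 1 class had Smarcd1 shares of 55.5% (46.4 to 64.3) and 62.8% (53.6 to 71.4). The ratio to Smarcd2 in delta cells was 1.29 (0.895 to 1.87) labelled BcBKO, with 1 inside the interval, and 1.73 (1.18 to 2.56) in flox/flox. Over all barcodes of the rules the ratios labelled BcBKO were 1.23 (0.977 to 1.54) in alpha and 1.10 (0.816 to 1.5) in delta cells, so the lean passed counting error in the flox/flox library under both settings and in the library labelled BcBKO for alpha barcodes of 1 class only.

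The Smarcd3 level by CPM was higher in alpha than in beta cells. It held 9.02% (5.87 to 13.1) of the BAF60 UMIs of alpha barcodes of 1 class labelled BcBKO and 5.26% (2.43 to 9.76) in flox/flox. The flox/flox interval overlaps that of beta cells. Its level was 3.17 CPM (24 UMIs) and 1.67 CPM (9 UMIs), which was 5.20 times (3.13 to 8.37) and 4.46 times (1.92 to 9.24) that of beta cells. Alpha over macrophage was 5.67 (0.924 to 233) labelled BcBKO, with 1 inside the interval. Beta cells keep only 29.1% and 27.8% of their UMIs once hormone and mitochondrial transcripts are set aside, and on that basis alpha was 2.60 and 2.22 times beta. By UMIs per cell it was 1.63 times (0.983 to 2.63) and 1.46 times (0.627 to 3.02), within counting error. Delta cells had 2 Smarcd3 UMIs labelled BcBKO and 1 in flox/flox in barcodes of 1 class, too few to set them apart from beta cells.

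**Figure D1:**
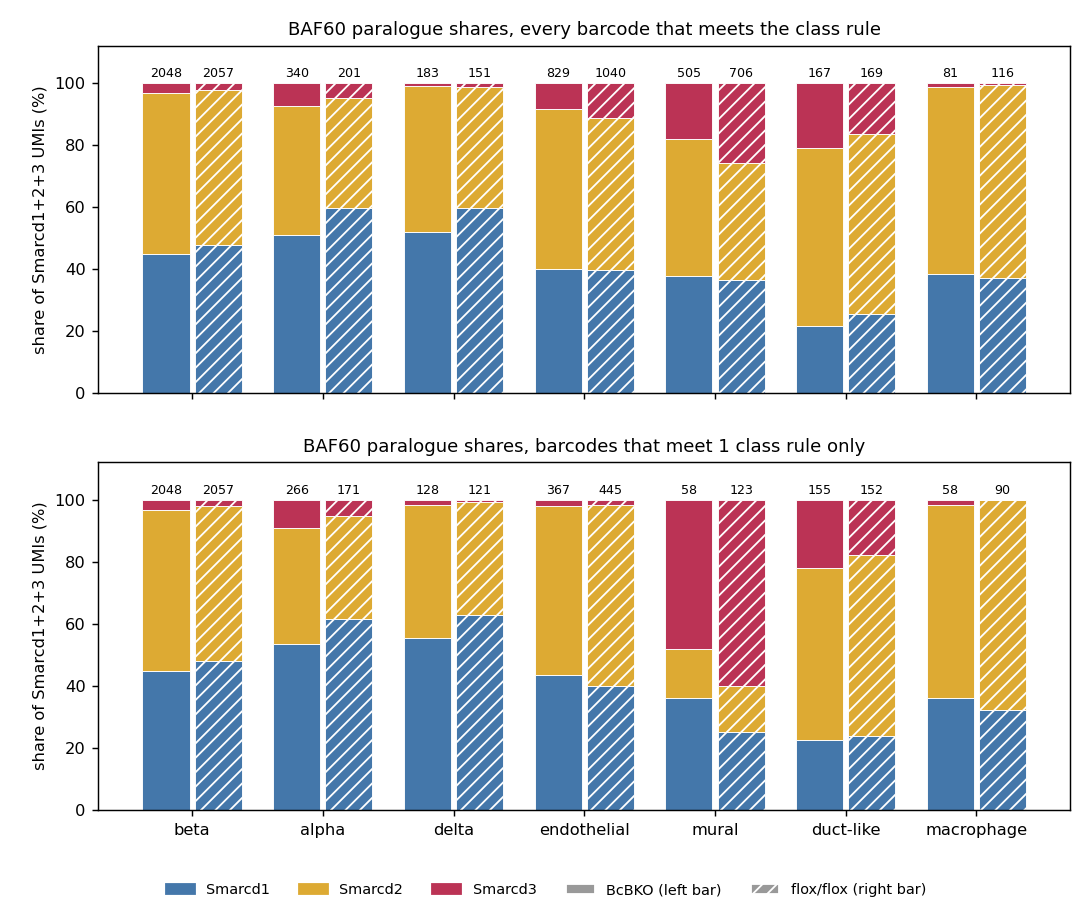
Share of Smarcd1, Smarcd2 and Smarcd3 in the summed UMIs of the 3 genes (vertical axis, percent) for 7 classes, for every barcode that meets a class rule (top) and for barcodes of 1 class only (bottom); the left bar of each pair is the library labelled BcBKO, the hatched right bar is flox/flox, and the number over a bar is its BAF60 UMIs. Smarcd3 is a thin band in beta cells (3.47% and 2.19%) and the largest part in mural barcodes of 1 class (48.3% and 60.2%). In the top panel, where most mural barcodes also meet the endothelial rule, it is the smallest part of the mural bars.

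Macrophages and endothelial cells used Smarcd2 first and had almost no Smarcd3. Macrophage barcodes of 1 class had a Smarcd2 share of 62.1% (48.4 to 74.5) labelled BcBKO and 67.8% (57.1 to 77.2) in flox/flox, from 36 of 58 and 61 of 90 BAF60 UMIs. Endothelial barcodes of 1 class had 54.5% (49.2 to 59.7) of 367 and 58.2% (53.5 to 62.8) of 445. With all barcodes of the endothelial rule the shares were 51.9% and 49.1%. Smarcd1 made up nearly all of the rest in barcodes of 1 class, with a ratio to Smarcd2 in endothelial barcodes of 0.800 (0.646 to 0.990) and 0.687 (0.565 to 0.835). The lead of Smarcd2 passed counting error in both libraries for endothelial barcodes and in the flox/flox library for macrophages.

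Smarcd3 had 7 UMIs in 995 endothelial barcodes of 1 class labelled BcBKO and 8 in 1176 of the flox/flox library, shares of 1.91% (0.770 to 3.89) and 1.80% (0.779 to 3.51). Over all barcodes of the endothelial rule the shares were 8.32% (6.53 to 10.4) and 11.2% (9.39 to 13.3). The shared barcodes held 61 and 108 of the 69 and 117 Smarcd3 UMIs of the endothelial rule.

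Smarcd3 had the most UMIs of the 3 in mural barcodes of 1 class, a setting chosen after seeing the data. In mural barcodes of 1 class, which had 162 cells labelled BcBKO and 221 in flox/flox, it gave 28 of 58 and 74 of 123 BAF60 UMIs, shares of 48.3% (35 to 61.8) and 60.2% (50.9 to 68.9). Its levels were 43.8 CPM (29.1 to 63.3) and 68.5 CPM (53.8 to 86). Smarcd1 was 32.9 CPM labelled BcBKO and 28.7 CPM in flox/flox, and Smarcd2 was 14.1 and 16.7 CPM. Smarcd3 exceeded Smarcd2 by ratios of 3.11 (1.43 to 7.49) and 4.11 (2.43 to 7.31). It exceeded Smarcd1 by 1.33 (0.730 to 2.47) labelled BcBKO, within counting error, and by 2.39 (1.55 to 3.76) in flox/flox. Over all barcodes of the mural rule Smarcd3 was the lowest of the 3, with shares of 18.0% (14.8 to 21.7) and 25.9% (22.7 to 29.3), with most of those barcodes also under the endothelial rule.

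In barcodes of 1 class the vessel classes thus differed in which paralogue they used, while their Smarcd1 did not differ beyond counting error. Mural over endothelial barcodes, both of 1 class, had Smarcd3 ratios of 30.7 (13.1 to 83.3) labelled BcBKO and 55.1 (26.6 to 132) in flox/flox. Smarcd2 ran the other way, at 0.345 (0.156 to 0.669) and 0.414 (0.242 to 0.668), a difference not seen with all barcodes of the rules, where endothelial over mural was 1.09 (0.923 to 1.28) and 1.15 (0.987 to 1.34). Smarcd1 was 1.01 (0.607 to 1.59) and 1.04 (0.685 to 1.53). By UMIs per cell the Smarcd3 ratios in barcodes of 1 class were 24.6 (10.5 to 66.6) and 49.2 (23.7 to 118). Over all barcodes of the rules the Smarcd3 contrast was much smaller. Mural over endothelial was 2.33 (1.68 to 3.23) labelled BcBKO, and flox/flox had 22.5 CPM in mural and 8.56 CPM in endothelial barcodes. Barcodes that met both rules had intermediate Smarcd3, at 11.8 CPM (9.05 to 15.2) labelled BcBKO and 15.5 CPM (12.7 to 18.7) in flox/flox. Their Smarcd2 was 41.3 and 35.1 CPM, near the 40.8 and 40.2 CPM of endothelial barcodes.

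**Figure D2:**
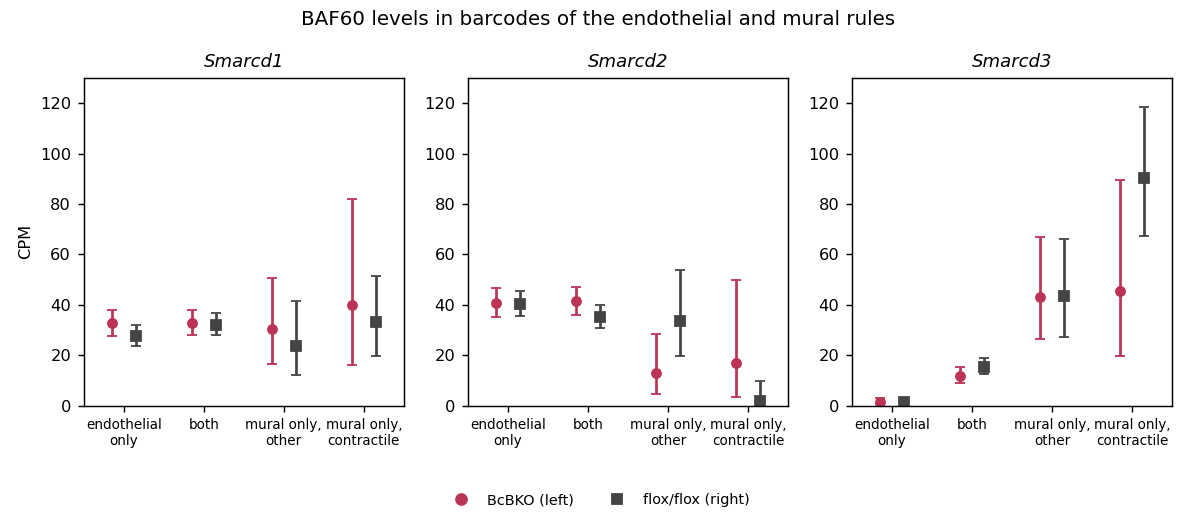
CPM (linear vertical axis) of Smarcd1, Smarcd2 and Smarcd3 in barcodes of the endothelial rule alone, of both rules, and of the mural rule alone split at 1% of UMIs from Acta2, Tagln and Myh11; circles on the left are the library labelled BcBKO, squares on the right are flox/flox, and bars are exact 95% Poisson intervals. Smarcd3 is at 1.43 and 1.24 CPM in endothelial barcodes and at 43.2 CPM and more in mural barcodes, while Smarcd1 stays between 23.8 and 39.8 CPM.

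Among mural barcodes of 1 class, 34 labelled BcBKO and 98 in flox/flox had at least 1% of UMIs from Acta2, Tagln and Myh11, contractile genes of smooth muscle. In the 98 flox/flox barcodes Smarcd3 had 52 UMIs (90.4 CPM, 67.5 to 119), Smarcd1 19 UMIs (33.0 CPM) and Smarcd2 1 UMI (1.74 CPM, 0.0440 to 9.68). Smarcd3 was thus 72.2% (60.4 to 82.1) of BAF60 UMIs there. The 34 barcodes labelled BcBKO had 8, 7 and 3 UMIs of Smarcd3, Smarcd1 and Smarcd2, with Smarcd3 at 45.5 CPM (19.6 to 89.6).

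Other mural barcodes of 1 class had Smarcd3 at 43.2 CPM (20 UMIs in 128 barcodes) labelled BcBKO and 43.6 CPM (22 UMIs in 123 barcodes) in flox/flox, a ratio of 0.991 (0.513 to 1.90). Contractile over other mural barcodes had a Smarcd3 ratio of 2.07 (1.24 to 3.58) in flox/flox and 1.05 (0.401 to 2.49) labelled BcBKO. For Smarcd2 the flox/flox ratio was 0.0516 (0.00123 to 0.329), from 1 and 17 UMIs. The flox/flox contractile barcodes were thus the ones that used Smarcd3 most and Smarcd2 least, and the 3 Smarcd2 UMIs labelled BcBKO are too few to tell whether that library shares the pattern.

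Duct-like cells used all 3 genes, and Smarcd2 most. The rule took 53 barcodes labelled BcBKO and 60 of the flox/flox library. Smarcd2 held 57.5% (49.6 to 65.1) of 167 BAF60 UMIs labelled BcBKO and 58.0% (50.2 to 65.5) of 169 in flox/flox, at 69.8 and 62.6 CPM, the highest level of the gene in any class. Smarcd3 held 21.0% (15.1 to 27.9) and 16.6% (11.3 to 23), at 25.4 CPM (17.7 to 35.4) and 17.9 CPM (11.9 to 25.9). Smarcd1 was at 26.2 and 27.5 CPM. Smarcd3 was close to Smarcd1, with ratios between them of 0.971 (0.588 to 1.6) and 0.750 (0.438 to 1.27) in barcodes of 1 class.

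The duct-like class was not the same in both libraries. In flox/flox 14 of the 60 barcodes had at least 3 UMIs of the intestinal genes Fabp1 and Fabp2, and 0 did labelled BcBKO. Those 14 had 3 Smarcd1, 12 Smarcd2 and 0 Smarcd3 UMIs, which allows up to 9.72 CPM of Smarcd3. Without them Smarcd3 was 25.4 CPM labelled BcBKO and 22.3 CPM in flox/flox, and its share 21.0% and 18.2%. Summed acinar markers, genes of digestive enzymes, were 60.3 CPM labelled BcBKO and 13311 CPM in flox/flox in duct-like barcodes of 1 class, with UMIs of all 5 listed genes in each. The acinar sum was lower labelled BcBKO in every class. Their part in the results was not tested.

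By level, Smarcd1 separated the classes least. In barcodes of 1 class it was 32.9 CPM in mural, 32.6 in endothelial, 28.2 in duct-like, 24.0 in delta, 18.8 in alpha, 11.8 in macrophage and 7.89 in beta cells labelled BcBKO. In flox/flox it was 28.7, 27.7, 25.8, 29.8, 19.5, 12.2 and 8.19 CPM in the same classes. Delta thus came first in flox/flox but below duct-like barcodes in the library labelled BcBKO. Neighbours in either order did not differ beyond counting error, except alpha over macrophage, at 1.6 (1.01 to 2.66) labelled BcBKO and 1.6 (1.05 to 2.51) in flox/flox. Mural over beta was 4.16 (2.57 to 6.40) and 3.51 (2.37 to 5.01).

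Smarcd2 had a steeper order. Duct-like barcodes of 1 class led with 69.2 CPM labelled BcBKO and 63.7 CPM in flox/flox, 1.70 times (1.30 to 2.19) and 1.58 times (1.23 to 2.02) the endothelial level of 40.8 and 40.2 CPM. Endothelial over macrophage, at 20.2 and 25.6 CPM, was 2.02 (1.41 to 2.97) and 1.57 (1.19 to 2.12). Macrophage, delta at 18.6 and 17.2 CPM, mural at 14.1 and 16.7 CPM and alpha at 13.2 and 10.6 CPM could not be told apart as neighbours. Beta cells were last at 9.09 and 8.55 CPM, and alpha over beta was 1.45 (1.17 to 1.79) labelled BcBKO and 1.24 (0.930 to 1.62) in flox/flox. Over all barcodes of the rules, most of them shared with the endothelial rule, mural Smarcd2 was 38.1 and 32.6 CPM, above macrophage by 1.80 (1.31 to 2.5) and 1.39 (1.06 to 1.82).

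Smarcd3 spanned the widest range. Mural barcodes of 1 class had 71.9 times (44.7 to 113) the CPM of beta cells labelled BcBKO and 183 times (125 to 271) in flox/flox, and duct-like barcodes 44.9 times (28.9 to 68.4) and 51.6 times (30.8 to 85). Mural over duct-like was 1.6 (0.936 to 2.72) labelled BcBKO, within counting error, and 3.55 (2.25 to 5.73) in flox/flox. Below them alpha, endothelial, delta, beta and macrophage had at most 3.17 CPM, and no neighbours among these passed counting error in barcodes of 1 class. Over all barcodes of the rules duct-like came first labelled BcBKO, at 1.65 times (1.08 to 2.46) mural, and mural came first in flox/flox, at 1.26 times (0.842 to 1.95) duct-like.

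**Figure D3:**
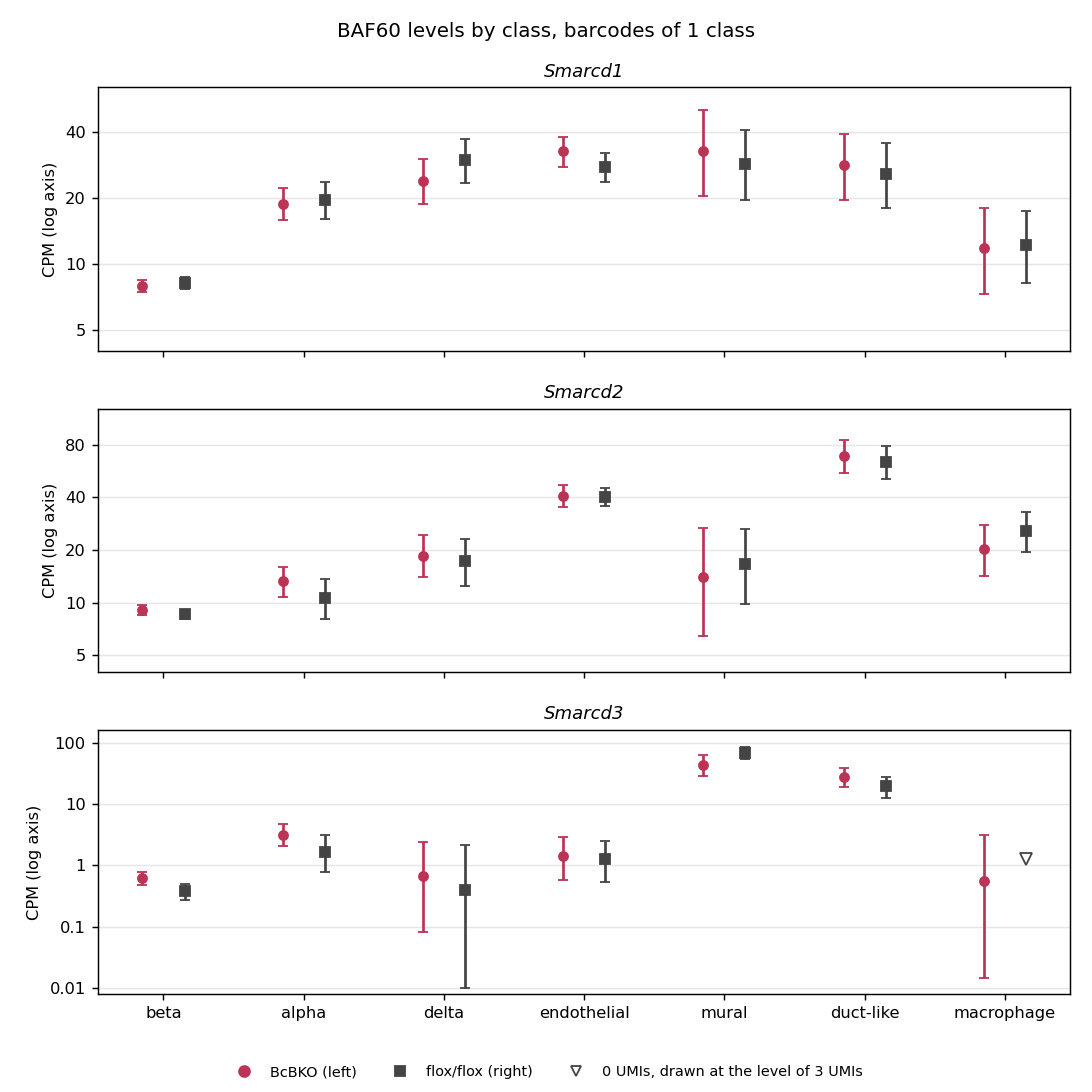
CPM of Smarcd1, Smarcd2 and Smarcd3 (vertical axes, log scale, different ranges) in barcodes of 1 class for 7 classes; circles on the left are the library labelled BcBKO, squares on the right are flox/flox, bars are exact 95% Poisson intervals, and the open triangle marks 0 UMIs drawn at the level of 3 UMIs. Beta cells are lowest for Smarcd1 and Smarcd2, and Smarcd3 is at 0.610 and 0.374 CPM in beta cells and at 43.8 and 68.5 CPM in mural barcodes.

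The place of beta cells at the low end depends on what a level is divided by. By CPM all 6 other classes had more Smarcd1 and more Smarcd2 than beta cells, in both libraries and over all barcodes of the rules. Without hormone and mitochondrial transcripts in the total, Smarcd1 exceeded beta cells in 5 classes labelled BcBKO and 4 in flox/flox, and Smarcd2 in 4 and 3. By UMIs per cell only 1 class, duct-like, had more of either gene. Beta barcodes needed 10000 UMIs and the other classes 1000, so values per cell favour beta cells by the rule itself. A beta cell held 0.301 Smarcd1 and 0.346 Smarcd2 UMIs labelled BcBKO and 0.358 and 0.374 in flox/flox, an endothelial barcode of 1 class 0.161 and 0.201 labelled BcBKO and 0.151 and 0.220 in flox/flox. With hormone and mitochondrial transcripts left out of the total, mural over beta in barcodes of 1 class was 1.37 and 1.08 for Smarcd1, and 23.6 and 56.5 for Smarcd3. The excess of Smarcd3 in mural and duct-like barcodes thus stood under each division, at 7.44 and 20.5 times beta for mural and 29.3 and 30.0 times for duct-like by UMIs per cell. Shares among the 3 genes do not depend on the divisor.

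Over all barcodes of the rules, Smarcd1 and Smarcd2 stayed within 1.5-fold between the libraries in all 7 classes. Smarcd1 ratios, BcBKO over flox/flox, ran from 0.854 in delta to 1.05 in endothelial barcodes over all barcodes of the rules, each with 1 inside its interval. In beta cells Smarcd1 was 7.89 and 8.19 CPM (0.964, 0.880 to 1.06) and Smarcd2 was 9.09 and 8.55 CPM (1.06, 0.974 to 1.16). Smarcd2 ratios ran from 0.900 in macrophages to 1.36 in alpha cells. The alpha ratio, 15.2 over 11.2 CPM, was the only one of these whose interval, 1.01 to 1.83, left 1 out. In alpha barcodes of 1 class it was 1.25 (0.893 to 1.76), and with TMM scaling, which shifts all alpha ratios by -0.11 on the log2 scale, it was 1.26. In other mural barcodes of 1 class Smarcd2 was 13.0 CPM labelled BcBKO and 33.7 CPM in flox/flox (6 and 17 UMIs), a ratio of 0.385 (0.124 to 1.02) that is past 1.5-fold and within counting error. Acinar RNA differed between the libraries in the same classes, with summed markers of 18.9 CPM labelled BcBKO and 118 CPM in flox/flox in beta, 59.6 and 319 CPM in alpha, and 73.6 and 480 CPM in mural barcodes of the rules, and its part in the ratios was not tested.

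Smarcd3 ratios stood on opposite sides of 1 in different classes, beyond counting error only in beta cells and over all barcodes of the mural rule. Beta cells had the higher level labelled BcBKO, as given above. Alpha cells over all barcodes of the rule had 2.80 CPM (26 UMIs) labelled BcBKO and 1.57 CPM (10 UMIs) in flox/flox, a ratio of 1.78 (0.830 to 4.13) that is within counting error. Mural barcodes of the rule had 15.5 CPM (91 UMIs) labelled BcBKO and 22.5 CPM (183 UMIs) in flox/flox, lower at a ratio of 0.687 (0.528 to 0.888). In mural barcodes of 1 class the ratio was 0.640 (0.399 to 1.00), with 1 inside the interval. Contractile barcodes were 34 of 162 there labelled BcBKO and 98 of 221 in flox/flox, with Acta2, Tagln and Myh11 summing to 7251 and 10486 CPM. Within contractile barcodes of 1 class the Smarcd3 ratio was 0.503 (0.206 to 1.07), and within other mural barcodes of 1 class it was 0.991 (0.513 to 1.90). Endothelial barcodes had 0.776 (0.568 to 1.05) by the rule and 1.15 (0.355 to 3.62) in 1 class, and duct-like barcodes 1.42 (0.840 to 2.43), or 1.14 (0.675 to 1.95) without the 14 intestinal-gene barcodes of flox/flox. Delta cells (2 and 2 UMIs) and macrophages (1 and 1 UMI) gave no usable ratio.

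Of the 3 genes, 1 passed 1.5-fold in beta cells (Smarcd3, higher) and 1 in alpha cells (Smarcd3, higher), where 10.2% of 12014 genes passed it in either direction and 8.06% upwards. Of the members with at least 20 UMIs over both libraries, none passed it over all barcodes of the other rules, where the share of all genes past 1.5-fold was 10.1% in delta, 10.2% in endothelial, 9.07% in mural, 20.8% in duct-like and 19% in macrophage barcodes. Smarcd3 passed it downwards in mural barcodes of 1 class, where 19.8% of genes did in either direction and 11.5% downwards. Set against these shares, the passing of 1.5-fold by 1 gene of 3 says little about the family.

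**Figure D4:**
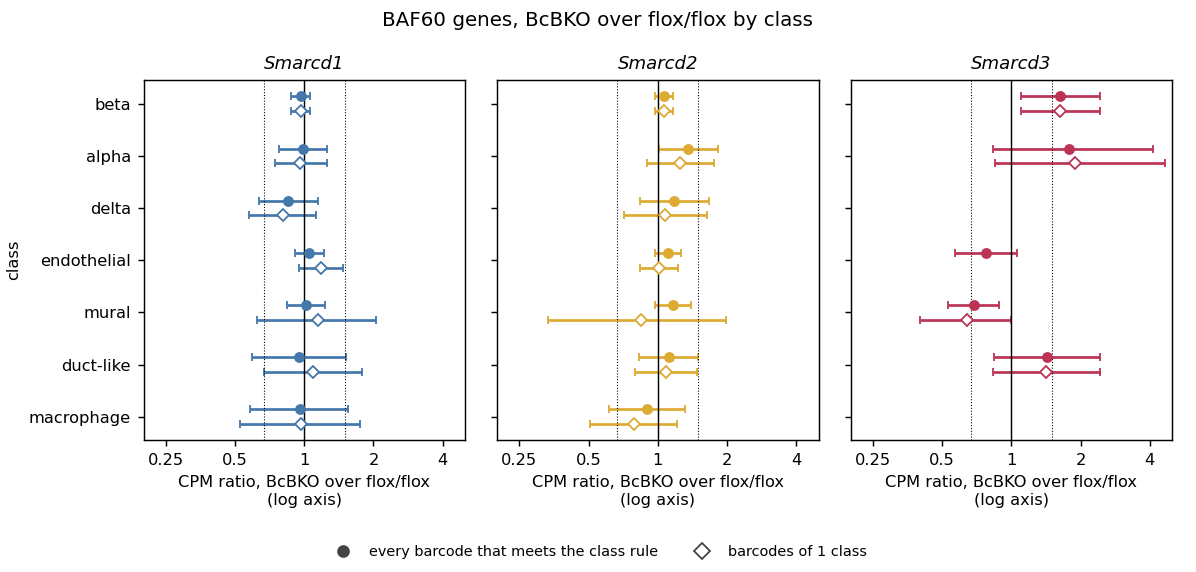
CPM ratio of the library labelled BcBKO over flox/flox (horizontal log axis) for Smarcd1, Smarcd2 and Smarcd3 by class; filled circles are all barcodes of a class rule, open diamonds barcodes of 1 class, bars exact 95% conditional intervals, the solid line is 1 and the dotted lines are 1.5-fold either way. Values with under 20 UMIs over both libraries are not drawn. Smarcd1 and Smarcd2 points lie within the dotted lines. Smarcd3 lies outside them in beta (1.63), in alpha and in mural barcodes of 1 class (0.640). Over all mural barcodes it lies within them (0.687).

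Single cells held too few UMIs to show which cells lack a paralogue. Among beta cells, 2.26% labelled BcBKO (69 of 3058) and 1.6% in flox/flox (44 of 2750) had a Smarcd3 UMI, at median depths of 33171.5 and 38461.5 UMIs. Macrophages of 1 class had 0.302% (1 of 331) and 0% (0 of 421, which allows up to 0.713%) at 4999 and 5474 UMIs, a limit on barcodes with a UMI and not on cells that express the gene. Thinning, here and below, was 1 random draw of UMIs from each cell, and another draw would give somewhat different counts. Thinned to 20000 UMIs per cell, which left out 241 and 64 shallower cells, beta cells had 1.21% (0.837 to 1.68) labelled BcBKO and 0.670% (0.398 to 1.06) in flox/flox. Thinned to 2000 UMIs they had 0.0654% and 0.0727%, 2 cells in each library, and macrophages 0 of 326 and 0 of 411, too few cells with a UMI to show a difference in either direction.

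Mural barcodes of 1 class held a Smarcd3 UMI in 15.4% labelled BcBKO and 28.5% in flox/flox, and in 8.55% (4.63 to 14.2) and 16.3% (11.5 to 22) when thinned to 2000 UMIs. Endothelial barcodes of 1 class, at a similar depth, had 0.529% (0.172 to 1.23) and 0.174% (0.0211 to 0.627) when thinned. Mural barcodes of 1 class thus stood far above them in both libraries.

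Where Smarcd3 was detected it was often the only BAF60 gene seen in a mural cell and seldom so in a duct-like cell. Of the mural barcodes of 1 class with a Smarcd3 UMI, 19 held Smarcd3 alone and 6 held it with Smarcd1 or Smarcd2 labelled BcBKO, against 51 and 12 in flox/flox. In duct-like barcodes 3 held it alone and 15 with another paralogue labelled BcBKO, against 0 and 17 in flox/flox. Duct-like barcodes were several times deeper (24070 and 21204 UMIs at the median), and deeper cells show more genes. In beta cells 29 held Smarcd3 alone and 40 with another paralogue labelled BcBKO, against 19 and 25 in flox/flox. Any BAF60 UMI was seen in 46.8% and 50.5% of beta cells.

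The genes whose class profile was most like each member's were ranked by Pearson's r of log2(CPM + 1) over the 7 classes, taking the lower of the 2 libraries, among 12617 genes. With 7 points that share libraries, depth and overlapping barcodes these are descriptions only. For Smarcd1 they were Tsen15, a subunit of the tRNA splicing endonuclease, Rnps1, a splicing factor, Zmym5, Asf1a, a histone chaperone, and Ubap2, with r from 0.989 to 0.993. For Smarcd2 they were Prelid1, a mitochondrial lipid carrier, Nipsnap3b, Tmbim6, an inhibitor of cell death of the endoplasmic reticulum, Ccdc61 and Ccs, the copper chaperone of superoxide dismutase (0.987 to 0.993).

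Genes most like Smarcd3 were Npas2, a clock transcription factor, Aifm2, a suppressor of lipid peroxidation also called FSP1, Mmp11, a metalloproteinase, S100b, a calcium-binding protein of glia, and Col4a5, a basement membrane collagen (0.962 to 0.980). All 5 had their highest CPM in duct-like or mural barcodes. In barcodes of 1 class, a setting chosen after seeing the data, 0 of these 5 remained, and the list included Ano1, a calcium-activated chloride channel, Sctr, the secretin receptor, Sbspon and Plce1, a phospholipase C (0.968 to 0.978). Ano1 was 263 CPM labelled BcBKO and 355 CPM in flox/flox in mural barcodes. Between the members r was 0.726 for Smarcd1 and Smarcd2, 0.725 for Smarcd1 and Smarcd3 and 0.797 for Smarcd2 and Smarcd3, and 0.482, 0.518 and 0.282 in barcodes of 1 class.

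Other subunits of the BAF and PBAF complexes gave a frame for these values. All 25 of the list had at least 20 UMIs in beta cells. Of these 1 was past 1.5-fold between the libraries, Dpf1, a subunit of neuronal complexes, with 44 UMIs (0.378 CPM) labelled BcBKO and 30 UMIs (0.25 CPM) in flox/flox, a ratio of 1.51 (0.931 to 2.49). None of the list was lower. Of all 14589 genes, 9.23% were past 1.5-fold in either direction and 7.37% upwards, so 1 of 25 says little about the list. The median ratio of the list was 1.06, against 1.05 for all genes. Among the 7 other families of exchangeable subunits, the paralogue with most UMIs in beta cells also led in each other class and library, except in duct-like barcodes. There Bcl7c led its family with 46.4% (39.9 to 53.0) labelled BcBKO and 52.8% (46.4 to 59.0) in flox/flox in barcodes of 1 class, where Bcl7b led in beta cells with 57.6% and 55.8%. In the BAF60 family the leader by UMIs was Smarcd2 in beta, endothelial, duct-like and macrophage barcodes of 1 class, Smarcd1 in alpha and delta, and Smarcd3 in mural. Several of these leads were within counting error. In flox/flox this holds for beta cells (Smarcd1 over Smarcd2 0.957, 0.876 to 1.05). Labelled BcBKO it holds for delta (1.29, 0.895 to 1.87), macrophage (0.583, 0.324 to 1.03) and mural barcodes (Smarcd3 over Smarcd1 1.33, 0.730 to 2.47). Over all barcodes of the mural rule Smarcd2 had the most UMIs and Smarcd3 the fewest.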

How the data were processed

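Islets of each group, pooled before capture, were dissociated and sequenced with the 10x Genomics 3′ v3 kit, per the labels' protocols. The deposited matrices hold UMI counts made by the authors, 1 matrix per library. The submitters' processing notes name Cell Ranger 3.1.0, Seurat 4.0.0 and the mouse build mm10, whereas Cell Ranger 6.1.2 stands in the matrices per the file headers. Whether the counts use strand is not given in the sources used here.

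Barcodes needed 500 genes, 1000 UMIs and at most 20% mitochondrial UMIs. Beta barcodes needed 25% of UMIs from Ins1 and Ins2, 10000 UMIs and under 1% from each of Gcg, Sst and Ppy. The other classes needed under 15% insulin and 10% Gcg (alpha), 5% Sst (delta), 3 UMIs of Plvap and Cdh5 (endothelial), 5 of Rgs5 and Pdgfrb (mural), 3 of Krt19 (duct-like) or 5 of C1qa and C1qb (macrophage). Kept barcodes of no class were 27.9% labelled BcBKO and 22.4% in flox/flox. Scrublet, as in scanpy 1.11.5, called 2.09% and 2.25% of kept barcodes doublets, and these stayed in.

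UMIs were summed per class and library. Intervals are exact (95%): Poisson for CPM, Clopper-Pearson for shares and conditional binomial for ratios. A count of 0 allows up to 3 counts, a fixed limit and not the upper end of one of these intervals. With 1 library per group no p-value was computed, and a gene passes where its CPM ratio exceeds 1.5-fold, among genes with at least 20 UMIs over both libraries. Beside the 3 members, the text names the 5 genes most like each (at least 5 CPM in a class in both libraries), subunits of a list of 25 that pass 1.5-fold in beta cells, and paralogues that lead a family in a class but not in beta cells. In the list for barcodes of 1 class, 1 gene is not reported here. The members, lists and rules were chosen with earlier results of these data known. The steps were tested on simulated counts. Intervals came from scipy 1.17.1 under Python 3.11.15, with numpy 2.4.6 and pandas 2.3.3 for the sums, matplotlib 3.10.9 for figures and edgeR 4.0.16 for TMM. Alternatives changed the divisor, cell weighting, doublets, class rules, filters, scaling, depth and pseudocount.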

Additional observations from a re-analysis of the deposited data

Results flagged for a closer look

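The Smarcd3 ratio of BcBKO over flox/flox stood on opposite sides of 1 in different classes, at 1.63 (1.11 to 2.42) in beta cells and 0.687 (0.528 to 0.888) in mural barcodes. Most of these mural barcodes also met the endothelial rule, and in mural barcodes of 1 class the ratio was 0.640 (0.399 to 1.00). Within the mural rule it was 0.481 (0.198 to 1.01) in contractile and 0.867 (0.649 to 1.15) in other barcodes. Each of these 3 intervals holds 1. The difference between beta and mural was not tested, since each group is 1 pooled library.

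BAF60 UMIs were also found in kept barcodes that met no class rule, 2369 labelled BcBKO (median 2637 UMIs) and 1692 in flox/flox (median 1822 UMIs), which no comparison of cell classes uses. Smarcd1 was 11.8 CPM labelled BcBKO and 13.6 CPM in flox/flox. Smarcd2 was 13.6 CPM and 12.8 CPM. Smarcd3 was 1.45 CPM (48 UMIs) and 0.741 CPM (13 UMIs). In macrophages of 1 class Smarcd3 was 0.560 CPM (0.0142 to 3.12) labelled BcBKO, and the 0 UMIs of flox/flox allow up to 1.26 CPM, so neither value could be told apart from that class. By Spp1, RNA of duct-like cells would bring 0.309 and 0.238 CPM of it, and its part was not tested.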

How the results depend on the processing

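No paired analysis was possible because each group is 1 library and the labels give no replicate numbers. Under the alternatives, 63 of 65 Smarcd3 ratios between libraries and 126 of 132 for the other members stayed within their counting interval and direction. So did 64 of 77 Smarcd3 shares and 142 of 154 other shares. The Smarcd3 ratios include delta cells (2 and 2 UMIs, interval 0.0586 to 11.2) and macrophages (1 and 1 UMI, 0.0169 to 104). Staying within intervals as wide as these was likely beforehand, so the counts are no measure of robustness. For the values below the cause was not tested.

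The Smarcd3 ratio fell to 0.257 in beta cells of 10000 to 20000 UMIs and was 1.15 in endothelial barcodes of 1 class. As a mean over cells, the Smarcd3 share was 6.40% labelled BcBKO and 6.95% in flox/flox in endothelial barcodes, and 22.9% and 32.4% in mural barcodes. In barcodes of 1 class it was 1.91% and 1.80% in endothelial and 48.3% and 60.2% in mural barcodes, and 0% in flox/flox macrophages. In all contractile mural barcodes it was 44.4% and 72.2%, in other mural barcodes of flox/flox 20.1%, and in flox/flox duct-like barcodes with intestinal genes 0%. Beta cells with a Smarcd3 UMI were 1.21% and 0.670% thinned to 20000 UMIs, and 0.0654% and 0.0727% thinned to 2000.

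Genes past 1.5-fold in beta cells were 5.72% with a minimum of 50 UMIs and 25.5% with 1. By UMIs per cell, 1 class exceeded beta cells in each library for Smarcd1 and for Smarcd2, and without hormone and mitochondrial transcripts 3 classes did for Smarcd2 in flox/flox and 4 labelled BcBKO, and 5 labelled BcBKO and 4 in flox/flox for Smarcd1, where by CPM all 6 did. Of the 5 genes most like Smarcd3, 3 remained with a pseudocount of 0.1 CPM, 0 with 10 CPM, 1 with a minimum of 20 CPM, 2 without hormone and mitochondrial transcripts and 0 in barcodes of 1 class. For Smarcd2, 1 remained under each of the last-named settings, and for Smarcd1, 1 in barcodes of 1 class. Without hormone and mitochondrial transcripts 0 other BAF subunits passed 1.5-fold in beta cells.

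Low counts, as for Smarcd3 in alpha, delta, macrophage and endothelial barcodes of 1 class, give wide intervals.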
